A study of Mus musculus with 18 samples.

Results

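Described here are 10 transcripts of glucose uptake and glycolysis, of the 41388 genes listed in each table. They are listed by symbol as steps of the pathway: the glucose transporters Slc2a1 and Slc2a3, the hexokinases Hk1 and Hk2, the phosphofructokinases Pfkl and Pfkp, and Aldoa, Gapdh, Pkm and Ldha of the lower pathway. All 10 had enough counts to enter the tests. The libraries are bulk RNA-seq of natural killer (NK) cells sorted from pooled mouse spleens. KO cells came from ILC-EomesΔ/Δ mice, which carried Ncr1-iCreERT2 as KI/WT, a tamoxifen-inducible Cre recombinase expressed from the Ncr1 gene of NK cells and related innate lymphocytes, together with the Cre-dependent reporter Rosa26YFPLSL and with Eomesfl/fl, the gene of the T-box transcription factor Eomes with both alleles floxed. WT cells came from mice labelled only as WT, and the strain is C57BL/6 throughout. Mice were 8 to 12 weeks old, received tamoxifen for 3 days and were used in 3 experiments, and the labels name neither a Cre nor a separate treatment for the WT mice. Each genotype was sorted by 2 surface proteins into CD27+CD11b- cells, called stage II, CD27+CD11b+ cells, called stage III, and the most mature CD27-CD11b+ cells, called stage IV, giving 6 groups of 3 libraries. The labels say that spleens were pooled but not which library came from which mice, so p-values measure the spread between these libraries.

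In glycolysis, glucose enters through SLC2A1 (GLUT1) or SLC2A3 (GLUT3), is phosphorylated by a hexokinase, is committed by phosphofructokinase, and is split and oxidised to pyruvate, which lactate dehydrogenase can turn into lactate. Resting NK cells are known to run this pathway at a low rate, and stimulation with cytokines is known to raise glucose transporter and hexokinase levels. Transcript levels do not measure flux, and in bulk samples fewer cells of one type and less RNA per cell cannot be told apart.

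Totals were 18684350 to 28365837 counts per library. Eomes checked the labels: it had 1310 to 1777, 3181 to 3488 and 2194 to 2750 counts in KO libraries of stages II, III and IV, against 3710 to 4631, 6227 to 7487 and 5620 to 5974 in WT libraries, so every KO library lay below every WT library of its stage, while Eomes reads remained in all of them. All 7 NK markers (such as Ncr1 and Klrk1) had counts in every library, but some differed between the genotypes. Itgam, the gene of the sort protein CD11b, was called lower in KO at stage III. Cd27, the gene of the other sort protein, was called lower in KO at stage IV. Ncr1 and Itgam were called lower in KO on average over the stages. The part of these differences in the values below was not tested. KO stage III replicates 1 and 3 stood apart, with counts for 14824 and 16536 genes, against 21454 in replicate 2 and 17899 to 29859 in the 15 libraries of the other groups, and the share of counts in the top 10 genes was 17.0% and 20.6%, against 9.94% to 15.9% elsewhere. At the upper end, WT stage II replicate 1 (29859 genes) and KO stage IV replicate 3 (27912 genes) also stood apart, and the next highest library had 21556. In these 2 libraries 10135 and 9854 genes had only 1 to 5 counts. Over all tested genes the median SD of log2 CPM (counts scaled by the library total) was 0.51 within KO stage III, while the other 5 groups had 0.16 to 0.23. Xist, which is expressed from the inactive X chromosome of females, was at most 0.636 CPM in WT replicates 2 and 3 of every stage and 5.66 to 45.2 CPM in the other 12 libraries. Values of Xist and all summed levels are CPM of the library total without TMM scaling. Libraries numbered 1, whose titles are written differently from the rest, had the lowest total level of immediate early and stress genes (2650 to 3787 CPM), next to 3872 CPM in replicate 3 of KO stage III, while the rest lay between 5335 and 10887 CPM. Every KO library had Xist at 5.66 CPM or more, and of the WT libraries only those numbered 1 did. Sex and genotype are therefore partly confounded, and in the fits without the libraries numbered 1 they cannot be told apart. Whether sex plays a part in the values below was not tested. Library number was not tested beyond those fits.

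Levels of the members and of other single genes below are given as CPM of the TMM-scaled library total. Between genes they are given as CPM per kilobase of the gene length listed in the files. Per length, Aldoa, Pkm and Ldha of the lower pathway were the most abundant of the 10. The median over the 18 libraries was 295 for Aldoa (aldolase A), 174 for Pkm (pyruvate kinase), 160 for Ldha (lactate dehydrogenase A), 33.2 for Pfkp, 24 for Slc2a3, 23.1 for Slc2a1, 17.9 for Pfkl, 13.4 for Hk1, 3.85 for Gapdh and 0.778 for Hk2. The ranges of neighbours overlapped: Pkm spanned 71.6 to 223 and Ldha 116 to 191, and Slc2a3 spanned 5.81 to 34.3 and Slc2a1 14.4 to 32.3. The level listed for Gapdh, the glyceraldehyde-3-phosphate dehydrogenase usually found among the most abundant transcripts, is low, and 58.4% of the 50-base stretches in its protein-coding transcripts also occur in transcripts of other genes, 215 of which are annotated as pseudogenes. The same share was 23.7% for Pkm (7 pseudogenes), 15.4% for Pfkp, 10.4% for Ldha, 8.5% for Aldoa and at most 1.6% for the other 5. Counts of Gapdh and Pkm are therefore uncertain, and no source used here says how reads with several positions were counted. Pfkp overlaps Pitrm1, and Aldoa overlaps Fam57b, on the opposite strand, and whether counting used strand is not given either.

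The first comparison asks how these transcripts differ without Eomes at each stage, and members passed the test at stage III, where the KO libraries also spread most. Hk2 was higher and Slc2a1 and Pfkp were lower in KO than in WT stage III cells, and the other 7 did not pass the test. SLC2A1 is the transporter that is induced with activation in many lymphocytes. Slc2a1 was at 41.0, 63.4 and 49.5 CPM in the KO stage III libraries (replicates 1, 2 and 3), against 75.6, 82.2 and 92.2 CPM in the WT libraries. All KO libraries lay below all WT libraries, and the log2 fold change was -0.70 ± 0.15 (SE, adjusted p = 0.0163, edgeR's quasi-likelihood test with Benjamini-Hochberg adjustment over all 14156 tested genes, as for every adjusted p below unless another test is named). Slc2a3, the high-affinity transporter, was at 42.1, 166 and 98.3 CPM in KO, against 158, 178 and 169.6 CPM in WT. Its KO replicate 2 lay within the WT range and the other two below it, and the difference was not called (log2 -0.72 ± 0.30, adjusted p = 0.128).

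HK1 is the constitutive hexokinase of most tissues and HK2 the inducible one. Hk2 was at 11.3, 8.39 and 13.6 CPM in KO stage III, against 2.27, 2.95 and 3.76 CPM in WT, with no overlap (3.69-fold higher in KO, log2 1.88 ± 0.38, adjusted p = 0.0108). Hk1 was at 17.1, 111 and 39.1 CPM in KO, against 114, 133 and 118 CPM in WT. All KO values were lower, but they spread 6.53-fold among themselves, and the log2 fold change of -1.12 ± 0.43 was not called (adjusted p = 0.101). The phosphofructokinases are the liver-type Pfkl and the platelet-type Pfkp, whose products form mixed tetramers. Pfkp was at 165, 300.4 and 146 CPM in KO, against 374, 432 and 409.8 CPM in WT. Every KO library was below every WT library (log2 -0.99 ± 0.23, adjusted p = 0.0229). Pfkl was at 23.7, 77.7 and 29.2 CPM in KO, against 73.9, 88.6 and 91.2 CPM in WT, and the groups overlapped (log2 -0.96 ± 0.35, adjusted p = 0.0913).

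In the lower pathway, Aldoa was at 1011, 772 and 1111 CPM in KO stage III, against 767, 838 and 801 CPM in WT (log2 0.27 ± 0.13, adjusted p = 0.171). Gapdh averaged 10.1 ± 0.325 CPM in KO and 11.5 ± 1.98 CPM in WT (SD, n = 3 each). Pkm, which encodes the M1 and M2 forms of pyruvate kinase that gene counts cannot separate, was at 279, 447 and 186 CPM in KO, against 437, 476 and 451 CPM in WT (log2 -0.58 ± 0.21, adjusted p = 0.0891). Ldha, whose product favours lactate formation, averaged 477 ± 57.7 CPM in KO and 477 ± 23.3 CPM in WT (SD, n = 3 each). None of these 4 passed the test, and in each of them KO and WT libraries overlapped. In all, 1 of 10 members was higher and 2 were lower in KO at stage III, where 5.16% and 2.75% of all tested genes were called higher and lower. The median log2 fold change was -0.64 over the members and 0.02 over all tested genes.

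**Figure D1:**
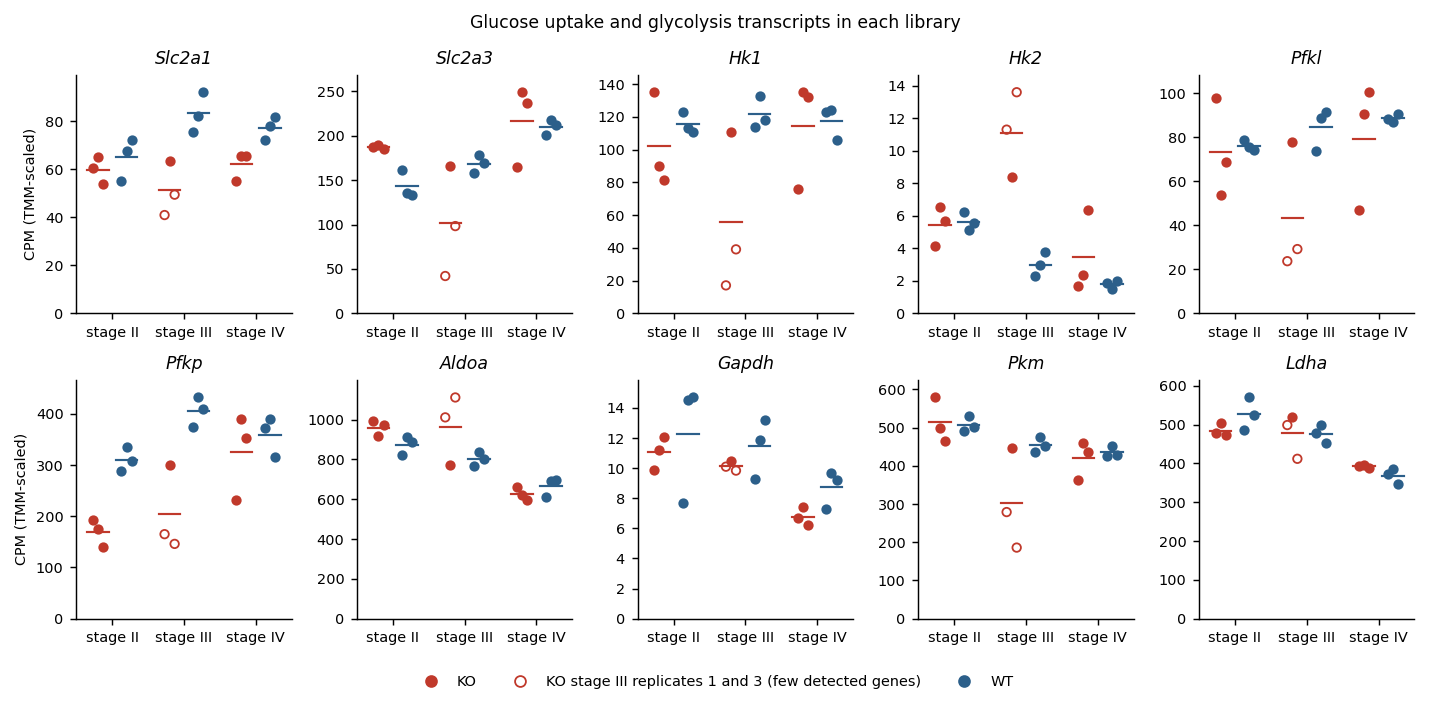
TMM-scaled CPM of each transcript (linear axis from 0) by stage, KO in red left of WT in blue, 1 point per library and a line at the mean of 3. Open circles are KO stage III replicates 1 and 3, which lie apart from replicate 2 for Slc2a3, Hk1, Pfkl and Pfkp, while Hk2 is above all 3 WT libraries in every KO stage III library.

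These values rest on libraries that differ among themselves. With KO stage III replicates 1 and 3 left out, the log2 fold changes were -0.41 for Slc2a1, -0.03 for Slc2a3, -0.14 for Hk1, 1.47 for Hk2, -0.13 for Pfkl, -0.44 for Pfkp and -0.04 for Pkm, with 0 members called, and the single KO library is then assumed to vary like the other groups. Without the libraries numbered 1, Slc2a1 (-0.63), Hk2 (1.70) and Pfkp (-0.92) were not called either, and with KO and WT stage III alone in the fit none was (adjusted p 0.384, 0.139 and 0.379), with 10 genes called overall in place of 1119. Of single libraries, leaving out KO replicate 1 or 3 ended the calls of Slc2a1 (-0.55 and -0.70) and Pfkp (-0.85 and -0.83), leaving out WT replicate 1 those of Hk2 (1.71) and Pfkp (-1.06), leaving out WT replicate 2 all 3 (-0.71, 1.87 and -0.95), and leaving out WT replicate 3 those of Slc2a1 (-0.63) and Pfkp (-0.99). Leaving out KO replicate 2 gave 8 called members, where 4993 of all 16318 genes tested in that fit were called.

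Within KO stage III, members differed between replicates 1 and 3 and replicate 2, not in one direction, and mostly within the spread of all tested genes. The SD of this log2 difference over all tested genes was 1.459 in replicate 1 and 1.076 in replicate 3. Only Slc2a3, Hk1 and Pfkl in replicate 1, and Hk1, Pfkl and Pkm in replicate 3, exceeded it in size. The median SD of log2 CPM within KO stage III was 0.453 over the members and 0.514 over all tested genes. Hk1 had the largest difference of the 10 in each, at log2 -2.70 in replicate 1 and -1.51 in replicate 3 relative to replicate 2. Slc2a3 was at -1.98 and -0.76 and Pfkl at -1.71 and -1.41. Pkm was at -0.68 and -1.26 and Pfkp at -0.87 and -1.04. Hk2 (0.42 and 0.69) and Aldoa (0.39 and 0.53) were higher in replicates 1 and 3. Over all tested genes this difference moved with listed gene length, with medians of 0.32 and 0.27 for genes up to 1000 bases and -0.36 and -0.33 for genes over 5000 bases. Of the 4 members over 5000 bases, Hk1 (8532), Slc2a3 (7245) and Pfkp (9395) lay below those medians and Hk2 (5969) above them. Pfkl (4395 bases), Pkm (2599 bases) and Slc2a1 (2853 bases, at -0.63 and -0.36) also lay below the medians of their length classes, as did Gapdh and Ldha. The class medians were -0.21 and -0.19 for genes of 3000 to 5000 bases and 0.03 and 0.00 for genes of 2000 to 3000 bases. Aldoa (2754 bases) lay above its class. The part of gene length in the KO stage III values was not tested.

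**Figure D2:**
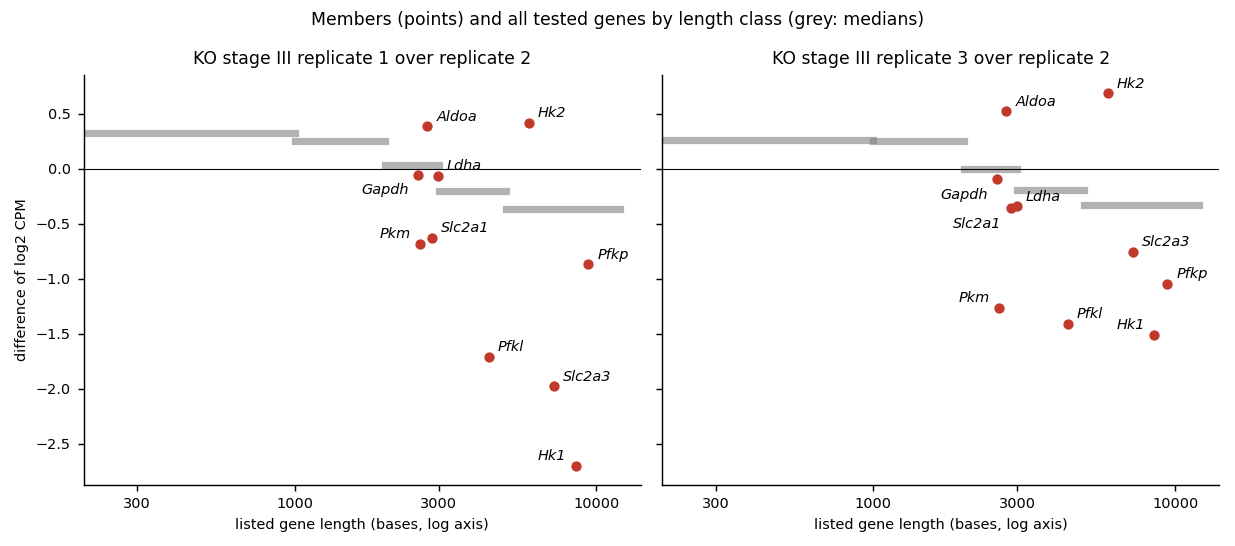
Log2 CPM of KO stage III replicate 1 (left) and replicate 3 (right) minus that of replicate 2, against listed gene length in bases (log axis). Points are the 10 transcripts and grey bars the medians of all tested genes in 5 length classes. Hk2 and Aldoa lie above the medians of their length classes in both panels, and all other members lie below.

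Markers of other cells also differed at stage III. In bulk samples, other cells and expression of these genes within the NK cells cannot be told apart, here and at the other stages. The summed level of 8 ILC1 markers (such as Cxcr6 and Zfp683) was 148 to 269 CPM in KO and 48.5 to 61.8 CPM in WT, all 8 were called higher, and none was at 0 in any library. That of 10 B cell markers was 899 to 1173 CPM in KO and 702 to 768 CPM in WT. Of these, Cd79b, H2-Aa and Cd74 were called higher, and between 0 and 4 had 0 counts in KO libraries and 1 or 2 in WT libraries. T cell markers summed to 226 to 285 CPM in KO and 206 to 225 CPM in WT, myeloid markers to 330 to 656 CPM in KO and 395 to 456 CPM in WT. The part of these marker differences in the values above was not tested.

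At stage II, no member passed the test (0 higher and 0 lower, where 0.466% and 0.996% of all tested genes were called). Among all 14156 tested genes 1237 had an unadjusted p under 0.05, and of the members only Pfkp did. It was at 192, 175 and 139 CPM in KO, against 288, 336 and 308 CPM in WT, with all KO libraries lower (log2 -0.88 ± 0.23, adjusted p = 0.0855). DESeq2 called Pfkp (adjusted p = 0.0133), voom with sample quality weights called Pfkp and Slc2a3, and edgeR called Pfkp with KO and WT stage II alone in the fit (-0.89, adjusted p = 0.0122) and without KO stage III replicate 2 (-0.86, adjusted p = 0.0125). Slc2a3 was at 187, 189.9 and 185 CPM in KO, against 162, 135 and 133 CPM in WT, all higher in KO (log2 0.39 ± 0.30, adjusted p = 0.879 by edgeR). The 2 hexokinases overlapped between the genotypes: Hk2 averaged 5.46 ± 1.21 CPM in KO and 5.64 ± 0.563 CPM in WT, and Hk1 averaged 102 ± 28.5 CPM in KO and 116 ± 6.34 CPM in WT (SD, n = 3 each). The median log2 fold change was -0.09 over the members and -0.01 over all tested genes. Markers of other cells differed here too. ILC1 markers summed to 1547 to 1879 CPM in KO and 634 to 1219 CPM in WT, with 5 of 8 called higher. B cell markers summed to 1901 to 2041 CPM in KO and 1402 to 1619 CPM in WT, with Cd79b called higher. Over the 8 tested B cell markers the median log2 fold change was nevertheless -0.53, so the list did not move in one direction. T cell markers summed to 378 to 470 CPM in KO and 501 to 548 CPM in WT, with Cd3d called lower. Their part in the stage II values was not tested.

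At stage IV, again no member passed (0 higher and 0 lower, where 0.24% and 0.268% of all tested genes were called), by edgeR, DESeq2 or voom. Among all 14156 tested genes 785 had an unadjusted p under 0.05, and of the members Hk2 alone did. It was at 1.69, 2.38 and 6.36 CPM in KO, against 1.85, 1.5 and 1.99 CPM in WT. Replicate 3 carried the higher KO mean, while replicate 1 lay within the WT range (log2 0.98 ± 0.39, adjusted p = 0.735). Slc2a1 was at 55.4, 65.6 and 65.8 CPM in KO, against 72.2, 78.1 and 81.8 CPM in WT, all lower in KO (log2 -0.31 ± 0.15, adjusted p = 0.945). Pfkp averaged 325 ± 82.6 CPM in KO and 359 ± 38.2 CPM in WT, and Aldoa 627 ± 31.9 CPM in KO and 666 ± 49.4 CPM in WT (SD, n = 3 each). The median log2 fold change was -0.07 over the members and 0.02 over all tested genes.

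Averaged over the 3 stages, Pfkp (log2 -0.67 ± 0.14, adjusted p = 0.00583) and Slc2a1 (-0.38 ± 0.09, adjusted p = 0.0168) were lower and Hk2 (0.94 ± 0.22, adjusted p = 0.0166) was higher in KO, that is 1 member higher and 2 lower, where 2.93% and 2.52% of all tested genes were called. The medians were -0.22 over the members and 0.01 over all tested genes. With the 2 unusual KO stage III libraries left out, Pfkp stayed called, while Slc2a1 (-0.28, adjusted p = 0.0595) and Hk2 (0.80, adjusted p = 0.0721) did not. Without the 6 libraries numbered 1, Pfkp was not called (-0.63, adjusted p = 0.0631). Slc2a1 also lost its call in 9 of 18 fits without 1 library, at adjusted p 0.0513 to 0.0681: KO stage II replicate 3, KO stage III replicate 1, KO stage IV replicate 1, and WT replicates 2 and 3 of each stage, with log2 values of -0.38 to -0.31. Leaving out KO stage III replicate 2 gave 6 called members, where 3196 of all 16318 genes tested in that fit were called. All 8 ILC1 markers were called higher in KO on average over the stages, and their part was not tested.

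Whether the KO effect itself differed between stages was tested as an interaction, and no member was called by edgeR or DESeq2. For stage III minus stage II, 3 members had an unadjusted p under 0.05, led by Hk2 (log2 difference of effects 1.93 ± 0.53, adjusted p = 0.262 by edgeR's quasi-likelihood test), with Slc2a3 (-1.11 ± 0.43) and Slc2a1 (-0.58 ± 0.22). Pfkp led both other contrasts, at 0.85 ± 0.33 for stage IV minus stage III (adjusted p = 0.474) and 0.74 ± 0.33 for stage IV minus stage II (adjusted p = 0.656), each with 1 member at an unadjusted p under 0.05, and voom called Pfkp in the last. Of all tested genes, 0.0494%, 0.0283% and 0.212% were called in these 3 contrasts, in the order given. Unadjusted p was under 0.05 for 1749, 1461 and 983 of all 14156 tested genes in the same order. Differences between stages in the calls above are therefore not shown to be differences in the effect of the deletion. Without KO stage III replicate 2, 6 members were called in each of the contrasts that involve stage III, where 2443 (stage III minus II) and 2440 (stage IV minus III) of all 16318 genes tested in that fit were called.

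**Figure D3:**
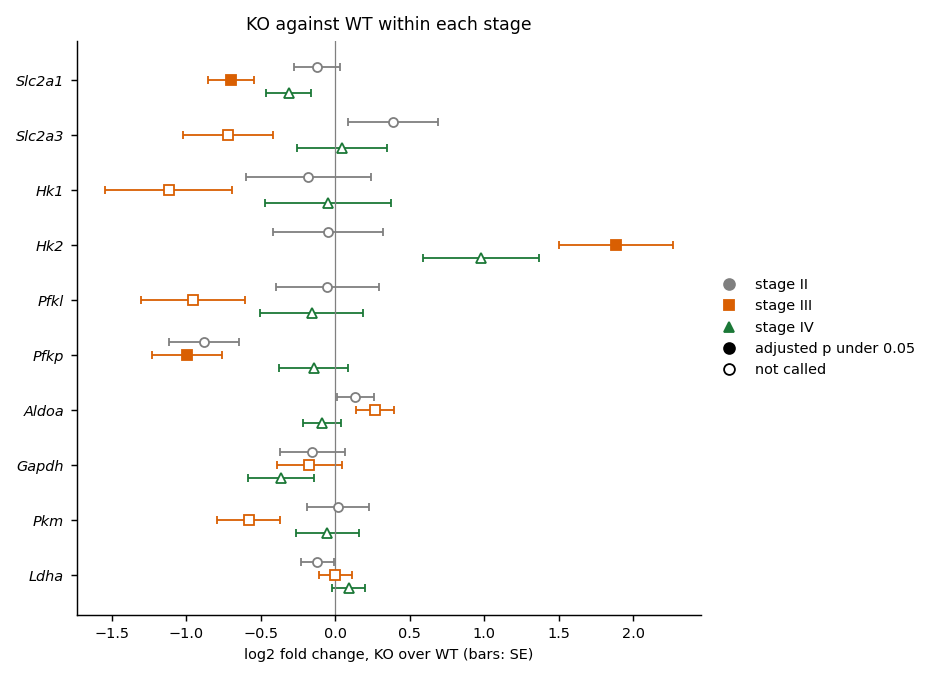
Log2 fold change of KO over WT for each transcript at stages II, III and IV, with bars of 1 SE and filled symbols where the adjusted p is under 0.05. The filled symbols are Slc2a1, Hk2 and Pfkp at stage III, and all symbols at stages II and IV are open.

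Promoter sequences are shown for the 3 members called between the genotypes at stage III. They are RefSeq windows on GRCm38.p6 of 250 bases before to 50 bases after the annotated start, written 5′ to 3′ on the gene's strand. Capitals mark ACGTG and GCGTG on either strand, the core letters of the response element bound by hypoxia-inducible factors, which are known regulators of glycolytic genes. Overlapping matches merge into one run of capitals.
Hk2 (chr6:82774405-82774704, minus strand): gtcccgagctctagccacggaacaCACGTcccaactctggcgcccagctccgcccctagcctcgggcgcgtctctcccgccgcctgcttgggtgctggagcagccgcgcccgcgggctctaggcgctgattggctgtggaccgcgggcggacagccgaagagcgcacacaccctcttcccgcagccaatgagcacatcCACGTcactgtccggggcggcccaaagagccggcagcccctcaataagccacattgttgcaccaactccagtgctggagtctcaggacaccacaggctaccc
Slc2a1 (chr4:119108495-119108794, plus strand): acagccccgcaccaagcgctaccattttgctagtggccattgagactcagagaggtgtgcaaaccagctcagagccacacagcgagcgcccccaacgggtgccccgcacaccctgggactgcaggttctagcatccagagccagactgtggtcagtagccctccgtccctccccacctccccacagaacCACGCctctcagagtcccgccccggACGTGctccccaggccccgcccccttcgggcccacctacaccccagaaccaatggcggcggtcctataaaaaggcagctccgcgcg
Pfkp (chr13:6648722-6649021, minus strand): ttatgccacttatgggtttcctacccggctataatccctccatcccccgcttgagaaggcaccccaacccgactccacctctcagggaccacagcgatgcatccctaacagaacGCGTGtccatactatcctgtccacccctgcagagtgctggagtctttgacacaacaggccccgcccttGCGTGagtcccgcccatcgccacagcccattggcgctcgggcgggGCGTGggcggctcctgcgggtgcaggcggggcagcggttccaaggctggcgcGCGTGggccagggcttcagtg
The Hk2 window holds 2 matches to ACGTG, the Slc2a1 window 1 of each spelling, and the Pfkp window 4 to GCGTG. Windows were found for 9 of the 10 members (14 windows), and 11 of these 14 hold either spelling. Of all 32851 windows given, 43.8% hold either spelling (19.6% ACGTG and 32.4% GCGTG). Some windows of 1 gene overlap, as for Aldoa, where the same match is counted in each. The share of G and C in the windows was not compared, so no enrichment is read from these counts. The E-box CACGTG, which contains ACGTG and is bound by MYC and related factors, was found in Ldha alone, against 7.2% of all windows. The T-box core GGTGTGA, letters that factors such as Eomes are known to bind, was in none of the 14 windows, against 4.0% of all windows. A match is a description of letters and not a binding site, and its absence says only that these letters are not in these windows.

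The second comparison follows the transcripts through maturation. In WT cells, Hk2, Ldha and Aldoa fell at stage IV relative to stage II, and the transporters and the phosphofructokinases did not pass the test. Hk2 was at 6.24, 5.12 and 5.58 CPM in WT stage II, 2.27, 2.95 and 3.76 CPM in stage III and 1.85, 1.5 and 1.99 CPM in stage IV. The 3 stages did not overlap, and the stage IV over stage II log2 fold change was -1.66 ± 0.39 (adjusted p = 0.00743). Ldha was at 486, 570.1 and 526 CPM in stage II, 478, 499.5 and 453 CPM in stage III and 373, 387 and 346 CPM in stage IV, with all stage IV libraries lowest (log2 -0.52 ± 0.11 for stage IV over stage II, adjusted p = 0.00392). Aldoa was at 824, 912 and 888 CPM in stage II, 767, 838 and 801 CPM in stage III and 609, 692 and 697 CPM in stage IV, again with all stage IV libraries lowest (log2 -0.39 ± 0.13, adjusted p = 0.0446). Thus 0 of 10 members were higher and 3 were lower in stage IV than in stage II, where 5.26% and 9.83% of all tested genes were called, with a median log2 fold change of -0.10 over the members and -0.02 over all tested genes.

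Among the WT members that were not called between stages IV and II, Slc2a3 was at 201, 218 and 212 CPM in stage IV, against 162, 135 and 133 CPM in stage II, with no overlap (log2 0.55 ± 0.30, adjusted p = 0.258). Slc2a1 was at 72.2 to 81.8 CPM in stage IV and 55.2 to 72.2 CPM in stage II, with all stage IV libraries higher, the nearest 2 by less than the rounding (log2 0.25 ± 0.15, adjusted p = 0.321). Hk1 averaged 118 ± 10.1 CPM in stage IV and 116 ± 6.34 CPM in stage II, Pfkl 88.6 ± 1.79 and 76.1 ± 2.55 CPM, and Pkm 436 ± 13.5 and 508 ± 20.7 CPM in the same order (SD, n = 3 each). Gapdh averaged 8.73 ± 1.29 CPM in stage IV and 12.3 ± 3.99 CPM in stage II, where replicate 1 was at 7.69 CPM and the others at 14.5 and 14.7 CPM. Between neighbouring WT stages, no member was called by edgeR. For stage III over stage II, 2 had an unadjusted p under 0.05, as had 1596 of all 14156 tested genes. DESeq2 called 0 members and voom called 2, and edgeR called 0.989% and 1.98% of all tested genes higher and lower. For stage IV over stage III, 2 members had an unadjusted p under 0.05, as had 1684 of all 14156 tested genes. DESeq2 called 1 member and voom called 2, and edgeR called 0.763% and 2.41% of all tested genes. The shares for both pairs of stages are edgeR's alone, and those of DESeq2 and voom are not given here. Same-numbered WT libraries of 2 stages correlated above 0.1 in their deviations from group means, but the labels do not say what the numbers mark. The replicate block was set by number over all 18 libraries of both genotypes. With it Ldha was called between stages IV and III (log2 -0.37, adjusted p = 0.0401, against 0.0917 without the block). The medians over the members were -0.02 for stage III over stage II and -0.14 for stage IV over stage III, and those over all tested genes were -0.02 and 0.01.

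The Hk2 call held in all 18 fits without 1 library. That of Ldha was lost without WT stage II replicate 2 (-0.41) or WT stage IV replicate 3 (-0.44), and without a filter on low counts (-0.49, adjusted p = 0.0833). That of Aldoa was lost in 16 of the 18, at log2 -0.44 to -0.30 and adjusted p 0.0515 to 0.267, and kept only without KO stage III replicate 2 or 3. It was also lost without a filter on low counts (-0.37) and without the libraries numbered 1 (-0.38). Leaving out KO stage III replicate 1 gave a call for Slc2a3 (0.58, adjusted p = 0.0272), and leaving out WT stage II replicate 1 gave one for Gapdh (-0.75, adjusted p = 0.0159). Summed levels of other cells' markers were lower in WT stage IV than in stage II: ILC1 markers 22.8 to 27.2 against 634 to 1219 CPM, B cell markers 236 to 349 against 1402 to 1619 CPM, T cell markers 198 to 219 against 501 to 548 CPM. Genes of the cell cycle summed to 320 to 326 CPM in stage IV and 388 to 717 CPM in stage II, with 8 of 14 called lower. Their part in the stage values was not tested.

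In KO cells, Aldoa and Gapdh fell and Pfkp rose at stage IV relative to stage II. Pfkp was at 192, 175 and 139 CPM in KO stage II, 165, 300.4 and 146 CPM in stage III and 232, 389 and 353 CPM in stage IV, and stage IV did not overlap stage II (log2 0.95 ± 0.23, adjusted p = 0.00967). The stage IV libraries reached the WT stage IV range in replicates 2 and 3 and not in replicate 1. Aldoa was at 990.4, 918 and 972 CPM in stage II, 1011, 772 and 1111 CPM in stage III and 661, 621 and 598 CPM in stage IV, with every stage IV library below all others (log2 -0.62 ± 0.13 for stage IV over stage II, adjusted p = 0.00232). Gapdh was at 9.91, 11.2 and 12.1 CPM in stage II, 10.1, 10.5 and 9.84 CPM in stage III and 6.70, 7.39 and 6.24 CPM in stage IV (log2 -0.70 ± 0.22, adjusted p = 0.0407), and its counts are uncertain as given above. That makes 1 member higher and 2 lower, where 6.12% and 8.77% of all tested genes were called, with medians of -0.12 over the members and 0.03 over all tested genes. Ldha was at 393, 397 and 388 CPM in stage IV, against 478, 503 and 473 CPM in stage II, with no overlap (log2 -0.30 ± 0.11, adjusted p = 0.0785), and was called without KO stage III replicate 3 (-0.32, adjusted p = 0.036).

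Hk2 did not pass this test in KO cells (log2 -0.64 ± 0.38, adjusted p = 0.314): it was at 1.69, 2.38 and 6.36 CPM in stage IV, against 4.17, 6.56 and 5.66 CPM in stage II. Replicate 3 of stage IV lay within the stage II range, and without it Hk2 was called (-1.41, adjusted p = 0.00612). The difference between the KO and WT changes of Hk2 between stages IV and II was not called either (1.02 ± 0.54, adjusted p = 0.833). The Aldoa call held in all 18 fits without 1 library. The Pfkp call was lost without KO stage II replicate 3 (0.82) or KO stage IV replicate 2 (0.78), and the Gapdh call in 15 of 18 fits and without a filter on low counts (-0.72, adjusted p = 0.0756), at log2 -0.79 to -0.64. ILC1 markers summed to 51.0 to 69.6 CPM in KO stage IV and 1547 to 1879 CPM in stage II, B cell markers to 165 to 223 CPM and 1901 to 2041 CPM, and T cell markers to 183 to 216 CPM and 378 to 470 CPM in the same order. Their part was not tested.

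**Figure D4:**
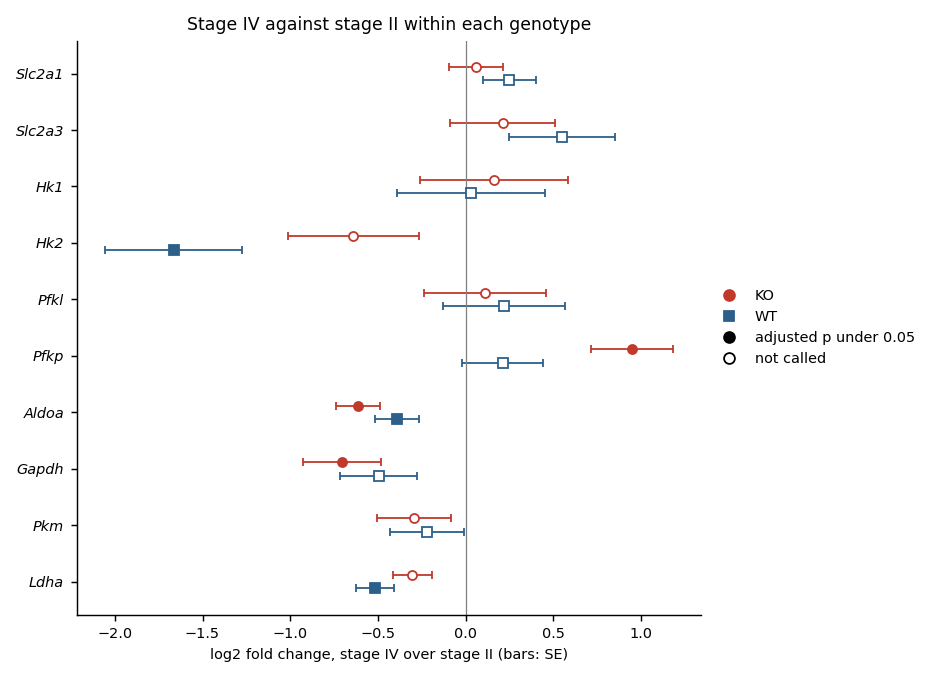
Log2 fold change of stage IV over stage II for each transcript in KO (red circles) and WT (blue squares) cells, with bars of 1 SE and filled symbols where the adjusted p is under 0.05. Aldoa is filled and below 0 in both genotypes, Hk2 and Ldha are filled in WT, and Pfkp (above 0) and Gapdh (below 0) are filled in KO.

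The remaining KO stage comparisons involve the unusual stage III libraries. For stage III over stage II, Pkm was called lower (log2 -0.76 ± 0.21, adjusted p = 0.0322), at 279, 447 and 186 CPM in stage III and 579, 499 and 466 CPM in stage II. That is 0 members higher and 1 lower, where 5.26% and 4.83% of all tested genes were called, with medians of -0.17 over the members and 0.01 over all tested genes. Same-numbered libraries of these 2 groups correlated at 0.154 to 0.313 in their deviations from group means. With the replicate block Slc2a3 was called as well (-0.96, adjusted p = 0.0422). For stage IV over stage III, Slc2a3 was higher (1.09 ± 0.30, adjusted p = 0.0223) and Hk2 (-1.66 ± 0.38, adjusted p = 0.00711) and Aldoa (-0.62 ± 0.13, adjusted p = 0.00323) were lower, 1 and 2 members, where 6.33% and 11.4% of all tested genes were called. The medians were 0.37 over the members and 0.03 over all tested genes. With KO stage III replicates 1 and 3 left out, Pkm (-0.21), Slc2a3 (0.37), Hk2 (-1.27) and Aldoa (-0.31) were not called. The Pkm call was also lost in 13 of the 18 fits without 1 library (log2 -0.83 to -0.53), and that of Slc2a3 without KO stage III replicate 3 (1.07) or KO stage IV replicate 2 (0.97) or 3 (1.02). Leaving out 1 library also gave calls: for stage III over stage II Hk2 without KO stage IV replicate 3 (1.02), and for stage IV over stage III Pfkl (1.12) and Pfkp (0.86) without KO stage IV replicate 1, Gapdh without WT stage II replicate 1 (-0.58) and Ldha without KO stage III replicate 3 (-0.36). Leaving out KO stage III replicate 2 gave 5 called members for stage III over stage II and 8 for stage IV over stage III, where 4828 and 5556 of all 16318 genes tested in that fit were called. ILC1 markers summed to 1547 to 1879 CPM in KO stage II, 148 to 269 CPM in stage III and 51.0 to 69.6 CPM in stage IV, with all 8 called lower in stage III than in stage II and 5 in stage IV than in stage III. B cell markers summed to 1901 to 2041, 899 to 1173 and 165 to 223 CPM in the same order of stages, with 1 and 4 called lower. T cell markers had 3 and 2 called lower, and of the myeloid markers Itgax and Cd68 were called higher in stage III than in stage II. The part of these marker differences in the stage values was not tested.

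The balance within the 3 isozyme pairs, as the share of the pair's summed level per length in each library, was taken as a description with no test. Pfkp made up 47.9%, 60.4% and 48.6% of Pfkp plus Pfkl in KO stage II, against 63.0%, 67.5% and 66.1% in WT, and the KO libraries were lower without overlap. In stages III and IV it made up 62.0% to 76.5% over both genotypes, and KO and WT libraries overlapped at each of these stages. Hk2 made up 48.5%, 9.71% and 33.2% of Hk2 plus Hk1 in KO stage III, against 2.77%, 3.07% and 4.37% in WT. In the other 4 groups it stayed between 1.69% and 9.42%, so Hk1 was the main hexokinase of the pair in every library. Slc2a1 made up 42.5% to 46.5% of Slc2a1 plus Slc2a3 in KO stage II, against 46.4% to 58.0% in WT, with a narrow overlap. In stage III it made up 71.2%, 49.2% and 56.1% in KO, against 54.9%, 53.9% and 58.0% in WT, so 1 KO library lay above, 1 below and 1 within the WT range. It made up 40.1% to 46.0% in KO stage IV, against 47.7% to 49.5% in WT, without overlap.

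The other genes of glucose metabolism were counted in lists by function. The counts stand against the shares of all tested genes given above: for stage IV over stage II, 6.12% higher and 8.77% lower in KO and 5.26% higher and 9.83% lower in WT, and for KO over WT at stage III, 5.16% higher and 2.75% lower. Of 10 tested of 14 other glycolytic enzymes, none was called between KO and WT at any stage. In stage IV relative to stage II, 3 were lower in KO and 2 in WT, and none was higher. Gpi1 and Hk3 were lower in both genotypes, and Pgam1, named after its values were seen, in KO. Gpi1, glucose-6-phosphate isomerase between the hexokinase and phosphofructokinase steps, was at 134, 143 and 139 CPM in KO stage IV, against 243, 232 and 198 CPM in KO stage II (log2 -0.70 ± 0.11, adjusted p = 0.000221). In WT it was at 152, 146 and 135 CPM in stage IV, against 237, 275 and 249.9 CPM in stage II (log2 -0.81 ± 0.11, adjusted p = 6.49e-05). Hk3, a hexokinase known mainly from myeloid cells, was at 3.61 to 4.80 CPM in KO stage IV, against 22.8 to 26.3 CPM in stage II (log2 -2.60 ± 0.30), and at 3.08 to 3.90 CPM in WT stage IV, against 19.1 to 19.4 CPM in stage II (log2 -2.45 ± 0.30, adjusted p = 2.42e-05). All stage IV libraries were far below all stage II libraries for both genes. The list's median for stage IV over stage II was -0.21 in KO and -0.46 in WT, against 0.03 and -0.02 over all tested genes.

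Of the pyruvate and lactate genes (12 of 13 tested), 4 were lower in KO stage IV than in stage II and 3 in WT, and none was higher, where 8.77% (KO) and 9.83% (WT) of all tested genes were called lower. Pdk1 and Ldhb were called in both genotypes, Slc16a1 in WT, and Pdk3 and Pdha1, named after their values were seen, in KO. Pdk1, a kinase that restrains pyruvate entry into mitochondria, was at 6.02, 3.51 and 3.97 CPM in KO stage IV, against 37.9, 30.5 and 35.6 CPM in stage II (log2 -2.95 ± 0.24, adjusted p = 1.54e-07). In WT it was at 4.92, 3.87 and 4.93 CPM in stage IV, against 29.5, 19.9 and 26.8 CPM in stage II (log2 -2.48 ± 0.24, adjusted p = 1.54e-06). Slc16a1, which encodes the lactate transporter MCT1, had a log2 fold change of -0.36 ± 0.24 in KO (adjusted p = 0.397) and of -1.32 ± 0.24 in WT (adjusted p = 0.00121), and the difference between these changes was not called (0.96 ± 0.34, adjusted p = 0.423). Ldhb, the other lactate dehydrogenase subunit, was at 0.211 to 0.283 CPM in KO stage IV, against 5.04 to 7.66 CPM in stage II, and at 0 to 0.082 CPM in WT stage IV, against 2.12 to 4.37 CPM in stage II. Both stage IV groups are near the limit of detection.

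Of the glucose transporters that are not members, 4 of 8 were tested. Slc2a6, a lysosomal transporter, was lower in stage IV than in stage II (log2 -1.96 ± 0.23 in KO and -1.39 ± 0.23 in WT, both called), and Slc2a10, which encodes GLUT10, was higher (3.00 ± 0.39 in KO and 1.67 ± 0.37 in WT, both called). Slc2a10 was at 0.739, 2.62 and 1.02 CPM in KO stage III, against 4.73, 4.99 and 4.74 CPM in WT, and was lower in KO (log2 -1.70 ± 0.38, adjusted p = 0.0179). Of 13 tested of 14 regulators, none was called between KO and WT at any stage. In stage IV relative to stage II, Txnip, an arrestin that restrains glucose uptake, was higher (0.77 ± 0.15 in KO and 0.60 ± 0.15 in WT), and Egln3, an oxygen-sensing prolyl hydroxylase, and Myc were lower in both genotypes (Myc -1.61 ± 0.46 in KO and -1.41 ± 0.45 in WT, adjusted p = 0.0237 and 0.0455). Of the pentose phosphate pathway (7 of 7 tested), Pgls was higher in KO at stage III (log2 0.94 ± 0.23) and Rpe was lower in WT stage IV than in stage II (-0.37 ± 0.10). Mpc2, a subunit of the mitochondrial pyruvate carrier, and Higd1a, a hypoxia-responsive gene, were also called higher in KO at stage III (0.82 ± 0.20 and 0.79 ± 0.17). For Pgls, KO stage III replicates 1 and 3 were at 163 and 121 CPM and replicate 2 at 63.9 CPM, within the WT range of 56.2 to 65.2 CPM, and for Mpc2 they were at 93.7 and 80.3 CPM and replicate 2 at 42.4 CPM, within the WT range of 38.6 to 43.7 CPM. Of 10 tested of 11 hypoxia-responsive genes, none was higher and 1 lower in KO stage IV than in stage II (Ero1l, named after its values were seen), where 6.12% and 8.77% of all tested genes were called. In WT 1 was higher (Mxi1) and 1 lower (Ndrg1), where 5.26% and 9.83% were called. None of the 5 genes that make or break down fructose 2,6-bisphosphate, the activator of phosphofructokinase, was called in any of the comparisons between genotypes or stages by edgeR.

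**Figure D5:**
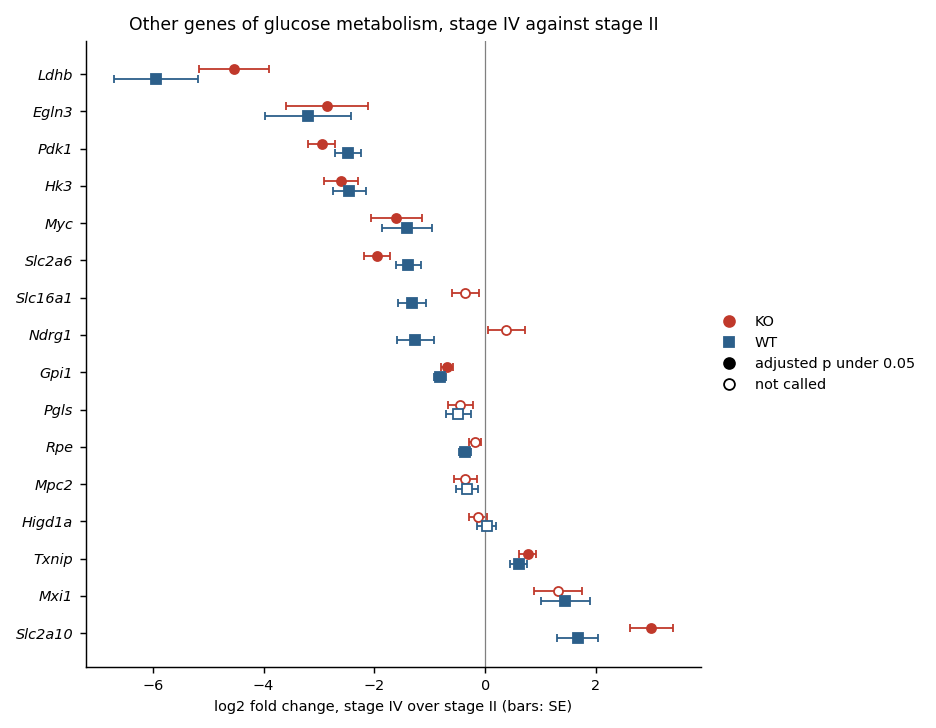
Log2 fold change of stage IV over stage II for the other genes of glucose metabolism called in KO against WT at any stage or in WT stage IV against stage II, in KO (red circles) and WT (blue squares) cells, with bars of 1 SE and filled symbols where the adjusted p is under 0.05. Pdk1, Hk3, Slc2a6 and Gpi1 are filled and below 0 in both genotypes, and Slc2a10 and Txnip are filled and above 0 in both.

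Across the 18 libraries the members did not vary as one group. As a description, log2 CPM of Hk1 and Pfkl had a Pearson r of 0.95, and 0.87 without the 3 KO stage III libraries, and Aldoa and Ldha had 0.64, and 0.83 without them. Slc2a3 and Hk1 had 0.89, and 0.28 without those 3 libraries, and Hk2 and Pkm had -0.39, and 0.60 without them. The points share their library, depth and group. The non-members closest to the members' mean standardised profile over the 18 libraries were Hjurp (r = 0.95), Ssrp1 (0.95), Sla (0.94), Ift88 (0.93) and Hnrnpf (0.92).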

How the data were processed

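The authors deposited 1 table per library, with a read count, a CPM and an RPKM for each of 41388 genes. Per the file headers these are counts, CPM and RPKM. The deposited CPM equals the count over the library total and the deposited RPKM equals CPM per listed kilobase (largest relative differences 5e-15 and 6.6e-14). Per the submitters' processing notes, STAR 2.0.4 and featureCounts 1.4.5 (Subread) were used. No source used here names the genome build or whether strand was used, so positions come from GENCODE M21 (GRCm38), matched by gene ID. Only the counts were tested: edgeR 4.0.16 (R 4.3.3), TMM scaling, the filterByExpr filter (14156 genes kept), 1 mean per group over all 18 libraries, quasi-likelihood tests and Benjamini-Hochberg adjustment over all tested genes. A gene is called at an adjusted p under 0.05, and SEs are the log2 fold change over the root of F. DESeq2 1.42.0 and limma 3.58.1 (voom) were alternatives.

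The members, lists and alternatives were chosen with earlier results of these data known. Non-member genes are named where they were called in KO against WT at a stage or in WT stage IV against II (at most 6 per list), or were the 5 most alike in profile. Replicate numbers were checked for pairing by the correlation of deviations from group means: same-numbered libraries correlated above 0.1 in every WT pair of stages (0.131 to 0.485) and in KO stages II and III (0.154 to 0.313), but not elsewhere. The numbers come from the sample titles, which do not say what they mark. Unlike-numbered WT libraries of different stages correlated at -0.384 to 0.186, so some of these also lay above 0.1.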

Additional observations from a re-analysis of the deposited data

How the results depend on the processing

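Each of the 13 comparisons was refitted under 9 other settings and without each of 18 libraries. Comparisons between stages of 1 genotype had 10 other settings. The number of all genes called also changed between settings, as given above for KO over WT at stage III. A count here or below is therefore not by itself a result about the members. Each fit gave the number of members called. Without a filter on low counts it was 1 for KO over WT at stage II, 7 at stage III and 5 for the average, 5 for KO stage III over II, 6 for KO stage IV over III, and 4 and 1 for the KO effect at stage III minus II and IV minus III. With DESeq2's Wald test it was 1 and 6 for KO over WT at stages II and III, 1 for WT stage IV over III, 2 for KO stage III over II and 5 for KO IV over III. With voom and sample quality weights it was 2, 6 and 5 for KO over WT at stage II, stage III and on average, 2, 2 and 5 for WT stage III over II, IV over III and IV over II, 2, 6 and 5 for the same KO pairs, and 1 for the KO effect at stage IV minus II. With a replicate block it was 1 for KO over WT at stage II, 1 for WT stage IV over III, 2 for KO III over II and 5 for KO IV over III, and with a block within each genotype, chosen after seeing the data, 1, 2 and 6 for the last 3. Same-numbered KO and WT libraries of a stage share a number, but their deviations correlated at -0.099 to 0.167, not above 0.1 in every pair, so the block was not used there; with it Pfkp was called at stage II (adjusted p = 0.0334). The block changed the called count of no other comparison beyond 1.5 times. With only the groups compared it was 1 and 0 for KO over WT at stages II and III, 1 and 2 for WT III over II and IV over III, and 0 for KO III over II and IV over III. Without the 2 KO stage III libraries with few detected genes it was 1, 0 and 1 for KO over WT at stage II, stage III and on average, 1 for WT IV over III, and 0, 0 and 5 for KO III over II, IV over III and IV over II. There the direction of 8 values turned: Aldoa in KO over WT at stage III (-0.066), Hk1 (0.124) and Pfkl (0.08) in KO III over II, Slc2a1 (-0.037) and Pkm (-0.10) in KO IV over III, Hk1 (0.044) in the KO effect at stage III minus II, and Pfkl (-0.038) and Pkm (-0.028) in IV minus III. Without the 6 libraries numbered 1 it was 0 for KO over WT at stage III and for KO III over II. The cause was not tested.

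Over the fits without 1 library the count ranged from 0 to 1 for KO over WT at stage II, 0 to 8 at stage III, 2 to 6 for the average, 1 to 3 for WT IV over II, 0 to 5 for KO III over II, 2 to 8 for KO IV over III, 1 to 4 for KO IV over II, and 0 to 6 for both KO effects that involve stage III. Scaling by library totals alone moved the median of all tested genes by -0.16 for KO over WT at stage III, -0.24 for KO III over II and 0.18 for KO IV over III, and turned no direction of a called member. Hk2 has few counts (1.5 to 13.6 CPM), which limits its precision.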
